A study of Mus musculus with 4 samples.

Results

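Secretory IgA is the antibody of the gut lumen, and 10 genes that make and carry it were read from 1 table of 22422 genes. They were picked by name, as the epithelial transporter Pigr, the joining chain Jchain, the IgA heavy chain Igha, the plasma cell genes Mzb1, Xbp1, Derl3 and Sdc1, the survival receptor Tnfrsf17 and its ligands Tnfsf13 and Tnfsf13b. All 10 were found and all 10 passed the filter on low values. RNA of whole distal colon was sequenced from female mice at 6 weeks of age. All had taken 2% DSS (dextran sulfate sodium, a polysaccharide that injures the colonic epithelium) for 5 days. The Elf4fl/fl-Villin-Cre mice carry loxP-flanked Elf4, an ETS transcription factor gene, and Cre made under the villin promoter, which is active in intestinal epithelium. Their strain label reads C57BL/8, while the design text gives C57BL/6 for all mice. The WT mice were C57BL/6, with no other allele stated. Each genotype had 2 libraries, every mouse received DSS, and nothing says whether libraries came from separate animals. All p-values then rest on the spread among 4 libraries, which may be technical.

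In the gut wall, plasma cells join a pair of IgA molecules through the J chain. The dimer leaves the cell, binds the polymeric immunoglobulin receptor on the base of an epithelial cell, and is carried to the lumen with part of that receptor. A plasma cell needs a large endoplasmic reticulum, which the factor XBP1 helps to build, and it lives on the ligands BAFF and APRIL. The transporter is thus made by epithelium and its cargo by plasma cells, so RNA of whole colon holds each from a different cell.

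The libraries held 15885028 to 16425954 reads, and values are read counts divided by 1 factor per library, called normalised reads here. Replicates correlated at 0.974 in Elf4fl/fl-Villin-Cre and 0.973 in WT colon, and libraries of different genotype at 0.941 to 0.962 (Pearson r of log2 values across genes). Elf4 had 897 and 758 normalised reads in Elf4fl/fl-Villin-Cre colon, against 1588 and 1938 in WT colon, and fell by 1.09 ± 0.16 on the log2 scale (SE; limma adjusted p = 0.0139). WT replicate 2 had the fewest immunoglobulin reads, with constant genes at 0.717% of its reads (Wilson 95% interval 0.713 to 0.721), against 1.28% to 1.36% in the other 3 libraries. Elf4fl/fl-Villin-Cre replicate 1 had the highest summed level of 16 B cell genes, at 4966 normalised reads, against 1330 to 2716 in the other 3 libraries.

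Promoter sequence is shown for the 2 members that passed the test, Pigr and Jchain, and for Derl3, the member with the largest increase in fitted fold. RefSeq windows of GRCm38.p6 (mm10) were matched for 8 of the 10 members, and Igha and Mzb1 had none. Each stretch is 120 bases read 5′ to 3′ along the gene, ending 1 base before the RefSeq gene start for Pigr and Jchain and 81 bases before it for Derl3.
Pigr: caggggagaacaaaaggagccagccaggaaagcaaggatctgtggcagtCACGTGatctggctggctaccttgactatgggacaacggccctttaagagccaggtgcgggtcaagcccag
Derl3: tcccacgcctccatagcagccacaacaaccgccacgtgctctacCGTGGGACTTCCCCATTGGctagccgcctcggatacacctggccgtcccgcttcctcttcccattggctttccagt
Jchain: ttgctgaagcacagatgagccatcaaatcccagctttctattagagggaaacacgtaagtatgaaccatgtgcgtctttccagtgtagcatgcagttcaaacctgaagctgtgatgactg
The Pigr stretch lies at chr1:130826564-130826683 on the plus strand, and its capitals mark the E-box CACGTG at bases -71 to -66. The Derl3 stretch lies at chr10:75893198-75893317 on the plus strand, and its capitals mark an endoplasmic reticulum stress response element on the reverse strand at bases -156 to -138. That element is CCAAT, 9 bases of any kind and CCACG, and it binds stress factors that include XBP1. The Jchain stretch lies at chr5:88527898-88528017 on the minus strand and has no capitals, because none of the motifs searched is in it. On both strands, CACGTG was in 7.15% of all 32851 windows of 300 bases, and the stress element in 0.119%. CACGTG also occurs in the Derl3 window, before the marked element and without overlap. The ETS core CGGAAG was in the window of 1 member, Tnfsf13b, and in 16.9% of all windows, and the longer CCGGAAGT was in no member window and in 3.89% of all. TGACGTGG, another stress motif, was in no member window and in 0.676% of all. These matches describe letters only, and binding was not measured.

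The transporter was lower and the joining chain higher in Elf4fl/fl-Villin-Cre colon, and IgA heavy chain RNA overlapped between genotypes. Of the 10 members, 1 rose (Jchain) and 1 fell (Pigr) at a limma Benjamini-Hochberg adjusted p under 0.05, where 15.5% of all 22050 genes tested passed (6.86% higher and 8.6% lower). The values of the groups did not overlap for 7 members, 4 higher and 3 lower, against 62.2% of all genes (35.0% higher and 27.2% lower). edgeR, on the whole reads, also called 1 higher and 1 lower, where it called 23.4% of 17337 genes (9.88% higher and 13.5% lower). Both shares of members lie near the background. The limma shares over all genes are also the background for the list counts below. The median log2 fold change was 0.27 over the members and 0.11 over all genes. In edgeR the members' median was 0.10 when Elf4fl/fl-Villin-Cre replicate 1 was dropped, 0.14 without WT replicate 2 and 0.40 without WT replicate 1. Medians with all 4 libraries, here and below, are from limma, and list medians without 1 library are from edgeR. With all 4 libraries edgeR put the median of all genes at 0.045. A step from a limma median to an edgeR median thus mixes the method with the dropped library.

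**Figure D1:**
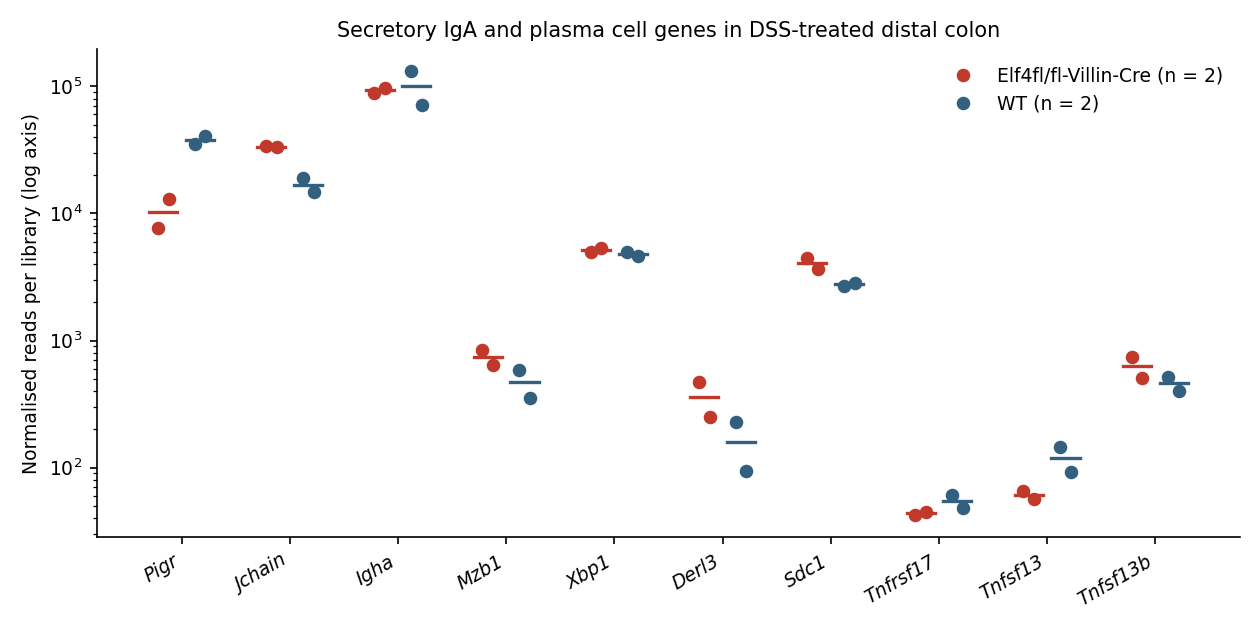
Normalised reads of the 10 genes in each library, on a log axis. Points are libraries (2 a genotype) and bars are means. Pigr stands at 7614 and 12875 in Elf4fl/fl-Villin-Cre, under both WT points, and both Elf4fl/fl-Villin-Cre points of Jchain lie above its WT points.

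Pigr (ENSMUSG00000026417.13, chromosome 1, 130826684 to 130852249, plus strand) had 7614 and 12875 normalised reads in Elf4fl/fl-Villin-Cre colon, against 35171 and 40859 in WT colon. The higher Elf4fl/fl-Villin-Cre library stayed well below the lower WT library. Pigr averaged 10245 ± 3720 in Elf4fl/fl-Villin-Cre and 38015 ± 4022 in WT colon (SD, n = 2 each), which is 3.71-fold lower. On the log2(value + 1) scale used for limma fold changes, Pigr fell by 1.94 ± 0.29 (SE; limma adjusted p = 0.0137). Fold changes given for edgeR are log2 values fitted to the whole reads. edgeR's quasi-likelihood test on the whole reads gave an adjusted p of 0.0104, and called Pigr in all 4 fits without 1 library (highest adjusted p = 0.0489).

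Epithelial RNA was lower in the same libraries. Of 15 colonic epithelium markers, 15 fell and 0 rose, with a median of -1.39. Their summed level was 117165 and 146564 normalised reads in Elf4fl/fl-Villin-Cre colon, against 342434 and 412314 in WT colon. The keratin genes Krt19 and Krt8 fell by 2.15 and 2.03, the microvillus gene Vil1 by 1.58 and the tight junction gene Cldn7 by 1.29 (limma adjusted p = 0.0111, 0.0118, 0.0094 and 0.0117). Without WT replicate 2, edgeR called 8 of the 15 lower. In RNA of a whole tissue, fewer epithelial cells and less RNA per cell cannot be told apart.

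Set against the 15 markers within each library, the difference in Pigr depended on the partner. Per 100 reads of the 15 markers together there were 6.50 and 8.78 Pigr reads in Elf4fl/fl-Villin-Cre colon, against 10.3 and 9.91 in WT colon. Taken 1 marker at a time, the ratio was lower in Elf4fl/fl-Villin-Cre colon without overlap for 11 markers, overlapped for 3 (Krt8, Vil1 and Cdx2) and was higher without overlap for 1 (Krt19). Per 100 reads of Epcam, an epithelial adhesion gene, Pigr stood at 54.2 and 75.0 in Elf4fl/fl-Villin-Cre colon, against 99.8 and 98.3 in WT colon. Per 100 Krt19 reads it stood at 102 and 109 in Elf4fl/fl-Villin-Cre colon, against 96.0 and 86.2 in WT colon. Per 100 Vil1 reads it stood at 136 and 216 in Elf4fl/fl-Villin-Cre colon, against 224 and 214 in WT colon. Krt19, Krt8 and Cdx2 had larger decreases on the log2 scale than Pigr, and the other markers smaller ones. With 2 libraries a genotype an exact two-sided permutation test cannot go below p = 0.333, which is what the ratio to all 15 markers gave.

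Signals known to act on the transporter went both ways. In human epithelial cell lines, cytokines such as TNF, interferon gamma and the Il17a product raise PIGR RNA. Of 17 such cytokines, receptors and factors, 3 rose and 1 fell, with a limma median of 0.12. Without Elf4fl/fl-Villin-Cre replicate 1 the edgeR median was 0.02, and without replicate 2 it was 0.13. Without WT replicate 1 it was 0.03, and without WT replicate 2 it was 0.19. Il1b rose to 3992 and 4110 normalised reads in Elf4fl/fl-Villin-Cre colon, against 661 and 368 in WT colon (limma adjusted p = 0.0074). Il17a had 43 and 29 whole reads in Elf4fl/fl-Villin-Cre colon and 0 in each WT library, where a count of 0 allows up to 3 reads (limma adjusted p = 0.0097). Il17f rose by 2.93 (limma adjusted p = 0.0333), and the size was 2.31 when Elf4fl/fl-Villin-Cre replicate 2 was dropped and 3.55 when replicate 1 was. edgeR kept the Il17f call only when Elf4fl/fl-Villin-Cre replicate 1 was dropped, and the highest adjusted p was 0.134. Tnf overlapped between the groups, at 336 and 298 in Elf4fl/fl-Villin-Cre colon and 225 and 573 in WT colon.

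Jchain, which joins IgA into dimers and IgM into pentamers, had 33603 and 33542 normalised reads in Elf4fl/fl-Villin-Cre colon, against 19008 and 14649 in WT colon (ENSMUSG00000067149.6, chromosome 5, 88519809 to 88527891, minus strand). The Elf4fl/fl-Villin-Cre libraries were nearly equal and above both WT libraries. Jchain averaged 33573 ± 42.8 in Elf4fl/fl-Villin-Cre and 16829 ± 3083 in WT colon (SD, n = 2 each), a ratio of 2.00. Jchain rose by 1.01 ± 0.21 on the log2 scale (SE; limma adjusted p = 0.0295; edgeR adjusted p = 0.027). The edgeR call was lost when WT replicate 2 (adjusted p = 0.129) or the first Elf4fl/fl-Villin-Cre library (adjusted p = 0.0567) was left out.

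Igha, the constant region of the IgA heavy chain, had 87890 and 97653 normalised reads in Elf4fl/fl-Villin-Cre colon, against 130750 and 71242 in WT colon (ENSMUSG00000095079.6, chromosome 12, 113254830 to 113260236). The WT libraries lay on either side of both Elf4fl/fl-Villin-Cre libraries. The log2 fold change was -0.06 ± 0.38 (SE; limma adjusted p = 0.933), and it stood at -0.50 without WT replicate 2 and 0.38 without WT replicate 1. Given this spread, no difference in Igha was detectable with 2 libraries a genotype.

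Ratios within a library separated the genotypes where Igha alone did not. There were 38.2 and 34.3 Jchain reads per 100 Igha reads in Elf4fl/fl-Villin-Cre colon, against 14.5 and 20.6 in WT colon. Igha stood at 125 and 125 reads per 100 reads of the light chain constant genes in Elf4fl/fl-Villin-Cre colon, against 158 and 163 in WT colon. These ratios do not depend on how libraries were scaled, and neither group overlaps the other. An exact two-sided permutation test gave p = 0.333 for each, the smallest it can give here.

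Relative to the transporter, the cargo RNA was higher in Elf4fl/fl-Villin-Cre colon. Jchain had 441 and 261 reads per 100 Pigr reads in Elf4fl/fl-Villin-Cre colon, against 54.0 and 35.9 in WT colon. Igha had 1154 and 758 reads per 100 Pigr reads in Elf4fl/fl-Villin-Cre colon, against 372 and 174 in WT colon. Both follow from the values above and add no independent test. As per-length levels (RPKM, reads scaled by exon length and library size), Pigr was at 145 and 233 in Elf4fl/fl-Villin-Cre colon, against 526 and 606 in WT colon. Jchain was at 1023 and 970 on that scale in Elf4fl/fl-Villin-Cre colon, against 455 and 348 in WT colon. Jchain thus stood above Pigr in each Elf4fl/fl-Villin-Cre library and below it in each WT library.

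**Figure D2:**
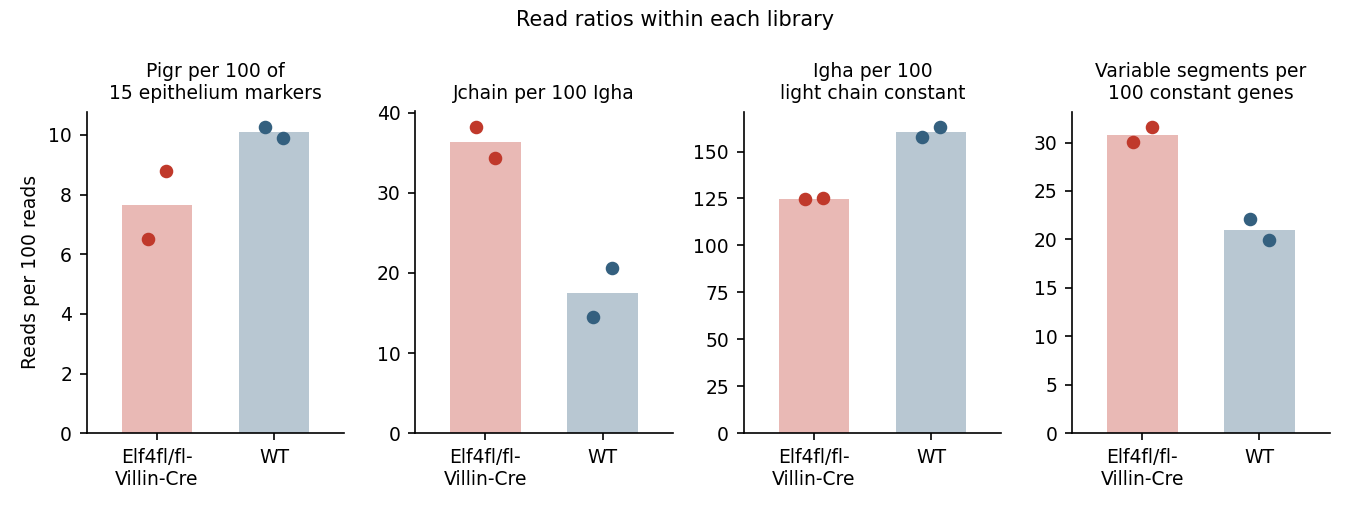
Read ratios within each library, in reads per 100 reads of the partner, with points for libraries (2 a genotype), bars for means and axes from 0. Pigr per 15 epithelium markers (6.50 and 8.78, against 10.3 and 9.91 in WT) and Igha per light chain are lower in Elf4fl/fl-Villin-Cre, though Pigr per Krt19 alone was higher. In the other panels Jchain per Igha (38.2 and 34.3, against 14.5 and 20.6 in WT) and variable segments per constant gene are higher in Elf4fl/fl-Villin-Cre.

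Of the other plasma cell members, none passed the test. Mzb1, Derl3 and Sdc1 were higher without overlap between the groups, which also held for 35.0% of all genes tested. Mzb1, a chaperone of antibody assembly in marginal zone B cells and plasma cells, had 840 and 643 normalised reads in Elf4fl/fl-Villin-Cre colon, against 591 and 353 in WT colon. Its lower Elf4fl/fl-Villin-Cre library was close to the higher WT library. The log2 fold change was 0.69 ± 0.27 (SE; limma adjusted p = 0.145), and in edgeR it ran from 0.31 without WT replicate 2 to 1.03 without WT replicate 1. Mzb1 overlaps the protein-coding gene SPATA24 on its own strand, and how shared reads were counted is not stated. Derl3, which helps move misfolded proteins out of the endoplasmic reticulum, had 470 and 249 in Elf4fl/fl-Villin-Cre colon, against 227 and 93.8 in WT colon. Its lower Elf4fl/fl-Villin-Cre library again lay close to the higher WT library, and the log2 fold change was 1.22 ± 0.48 (SE; limma adjusted p = 0.139).

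Leaving out 1 library moved these members across the threshold in a few edgeR fits. Mzb1 had an adjusted p of 0.0448 without WT replicate 1, and Derl3 of 0.0204 without Elf4fl/fl-Villin-Cre replicate 2. The log2 fold change of Derl3 in edgeR lay between 0.59, when Elf4fl/fl-Villin-Cre replicate 1 was dropped, and 1.90, when WT replicate 1 was. Jchain per Mzb1 read overlapped between the groups, at 40.0 and 52.2 in Elf4fl/fl-Villin-Cre colon and 32.2 and 41.5 in WT colon.

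Sdc1 and Xbp1 are shared between plasma cells and epithelium. Sdc1, the heparan sulfate proteoglycan CD138 that marks plasma cells and also coats epithelial cells, had 4444 and 3650 normalised reads in Elf4fl/fl-Villin-Cre colon, against 2702 and 2859 in WT colon. The groups were apart, and the log2 fold change was 0.54 ± 0.15 (SE; limma adjusted p = 0.0643). With libraries scaled to their totals, Sdc1 passed (0.85, limma adjusted p = 0.0197). Xbp1, the transcription factor of the secretory program, had 4965 and 5319 in Elf4fl/fl-Villin-Cre colon, against 4967 and 4582 in WT colon. These groups overlapped by a small margin, and the log2 fold change was 0.11 ± 0.14 (SE; limma adjusted p = 0.639). Spliced and unspliced Xbp1 RNA are not told apart by gene-level reads.

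Per exon length, Xbp1 and Sdc1 stood above the more restricted Mzb1 in every library. In RPKM, Xbp1 ran from 84.3 to 119, Sdc1 from 42.7 to 89.4 and Mzb1 from 17.4 to 53.0. Of the 4 syndecan genes, 0 passed in either direction by limma or edgeR. Sdc4, a syndecan of many cell types, had 4586 and 4061 normalised reads in Elf4fl/fl-Villin-Cre colon, against 2721 and 3982 in WT colon (limma adjusted p = 0.254).

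The survival receptor and its ligands were among the lowest members. Neither limma nor edgeR called any. Tnfrsf17 encodes BCMA, which long-lived plasma cells need, and had 42.3 and 45.2 normalised reads in Elf4fl/fl-Villin-Cre colon, against 60.7 and 48.5 in WT colon. These are 46 to 59 whole reads a library, and the log2 fold change was -0.30 ± 0.28 (SE; limma adjusted p = 0.501). With libraries scaled to their totals it was 0.01, where the median of all genes was 0.41 in place of 0.11. Of the sister receptors, Tnfrsf13b (TACI) overlapped, at 318 and 165 in Elf4fl/fl-Villin-Cre colon and 185 and 114 in WT colon (limma adjusted p = 0.287). Tnfrsf13c (the BAFF receptor) overlapped too, at 106 and 61.9 in Elf4fl/fl-Villin-Cre colon and 63.8 and 16.9 in WT colon (limma adjusted p = 0.227).

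The ligands leaned opposite ways without passing. Tnfsf13, which encodes APRIL, had 65.2 and 56.9 normalised reads in Elf4fl/fl-Villin-Cre colon, against 145 and 92.7 in WT colon. The groups were apart, with a log2 fold change of -0.92 ± 0.29 (SE; limma adjusted p = 0.0852; edgeR adjusted p = 0.0587), and DESeq2 called it (adjusted p = 0.0442). Tnfsf13 overlaps Tnfsfm13 on its own strand and Tnfsf13os on the other, and no source gives strand in counting, so reads of these genes cannot be told apart. Tnfsfm13 was at 42.3 and 31.8 normalised reads in Elf4fl/fl-Villin-Cre colon, against 20.6 and 25.3 in WT colon. Tnfsf13b, which encodes BAFF and is made by myeloid and stromal cells, had 748 and 505 in Elf4fl/fl-Villin-Cre colon, against 519 and 403 in WT colon. These groups overlapped slightly, and the log2 fold change was 0.43 ± 0.23 (SE; limma adjusted p = 0.263). Tnfsf13b overlaps Gm44789 on the other strand, which had 9.77 and 3.34 in Elf4fl/fl-Villin-Cre colon, against 3.09 and 0 in WT colon.

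Myeloid RNA, one source of both ligands, was higher in the same libraries. Of 12 myeloid markers, 11 rose and 0 fell, with a median of 1.64, and edgeR called 6 without WT replicate 2. The marker that did not pass, Ly6g, had a log2 fold change of -0.40 (limma adjusted p = 0.168). Csf3r and S100a9, of neutrophils, rose by 2.15 and 3.26, and Cd14 and Itgam by 1.37 and 1.83 (limma adjusted p = 0.0074, 0.0095, 0.0089 and 0.0115). S100a9 stood at 3.87 without WT replicate 1 and 2.66 without WT replicate 2. The part of myeloid cells in the ligand values was not tested.

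Within the other heavy chain classes, Ighg2c rose and Ighg1 fell, while the share of IgA overlapped between genotypes. Igha made up 90.7% and 93.8% of heavy chain constant reads in Elf4fl/fl-Villin-Cre colon, and 91.7% and 93.3% in WT colon. Of 11 other heavy and light chain constant genes, these were the 1 that rose and the 1 that fell. Ighg2c had 3544 and 2836 normalised reads in Elf4fl/fl-Villin-Cre colon, against 981 and 705 in WT colon, and rose by 1.93 ± 0.20 (SE; limma adjusted p = 0.0094). Ighg1 had 552 and 243 in Elf4fl/fl-Villin-Cre colon, against 5322 and 1454 in WT colon, and fell by 2.92 ± 0.65 (SE; limma adjusted p = 0.0335).

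The sizes for Ighg1 rest on libraries that lay far apart. The difference was -1.98 without WT replicate 1, -3.86 without WT replicate 2 and, with an Elf4fl/fl-Villin-Cre library dropped, -3.51 (replicate 1) or -2.33 (replicate 2). edgeR called both genes in each fit without 1 library (highest adjusted p = 0.0497 for Ighg1 and 0.0329 for Ighg2c). Ighg1 took 7.80% and 4.92% of IgG constant reads in Elf4fl/fl-Villin-Cre colon, against 64.1% and 46.1% in WT colon. Ighg2c took 50.1% and 57.4% in Elf4fl/fl-Villin-Cre colon, against 11.8% and 22.3% in WT colon. The Wilson 95% intervals of the Ighg1 shares ran from 4.40% to 8.39% in Elf4fl/fl-Villin-Cre and from 44.3% to 65.1% in WT colon, and cover counting error only.

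IgE and IgM pointed the same way as Ighg1 without passing limma. Ighe had 13.8 and 9.20 normalised reads in Elf4fl/fl-Villin-Cre colon, against 89.5 and 30.6 in WT colon (limma adjusted p = 0.058; edgeR adjusted p = 0.0338). Ighm had 1432 and 1330 in Elf4fl/fl-Villin-Cre colon, against 3170 and 1828 in WT colon (limma adjusted p = 0.091). These constant genes are similar in sequence, and how shared reads were counted is not stated, so the split between IgG classes is uncertain.

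**Figure D3:**
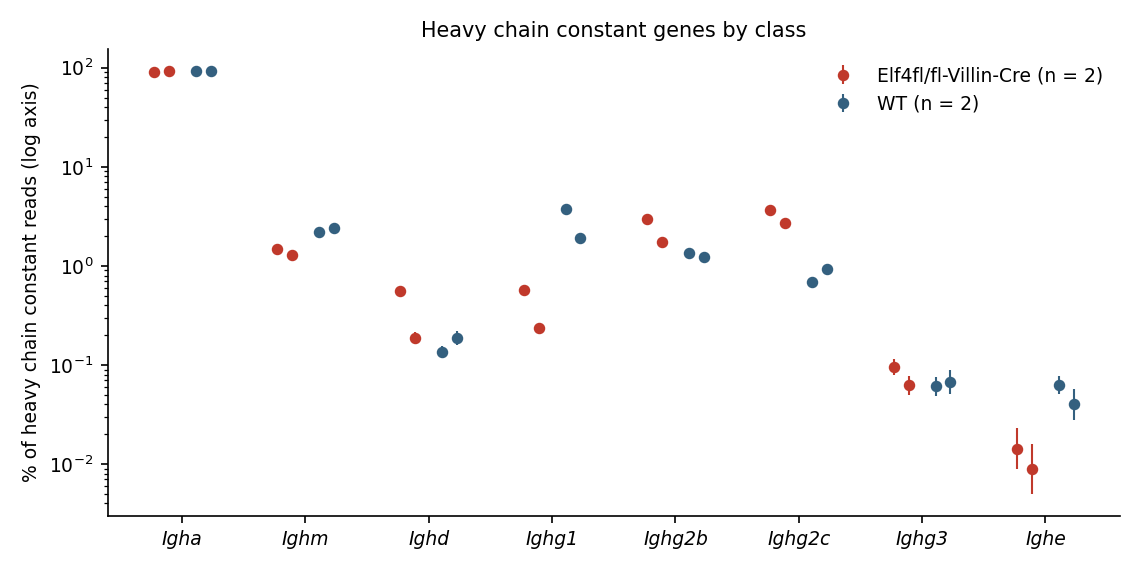
Share of heavy chain constant reads taken by each class in each library, in % on a log axis, with Wilson 95% intervals as error bars. Igha stays at 90.7% to 93.8% in all 4 libraries, while Ighg1 is lower and Ighg2c higher in both Elf4fl/fl-Villin-Cre libraries.

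Variable segments encode the part of the antibody that binds antigen, and those of kappa light chains that passed limma with all 4 libraries were higher. All 93 kappa segments were tested, 13 rose and 0 fell, and the median log2 fold change was 1.10. Over all genes tested, limma called 6.86% higher and 8.6% lower. Among the heavy chain segments, 95 of 96 were tested, 4 rose and 3 fell, and the median was 0.26. In edgeR that median was -0.09 when Elf4fl/fl-Villin-Cre replicate 1 was dropped, -0.02 without WT replicate 2 and 0.83 without WT replicate 1, with 2 to 13 segments called higher and 3 to 12 lower. Whether the kappa and heavy chain shares differ was not tested. The summed kappa level was 28738 and 25475 normalised reads in Elf4fl/fl-Villin-Cre colon, against 22162 and 13374 in WT colon. The kappa constant gene Igkc overlapped between the groups, at 65808 and 65554 in Elf4fl/fl-Villin-Cre colon and 74423 and 42675 in WT colon. The kappa median was 1.87 without WT replicate 1 and 0.52 without WT replicate 2 (edgeR), and edgeR called 9 to 29 kappa segments higher and 0 to 4 lower over the 4 fits without 1 library.

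Among segments chosen after their values were seen, Igkv12-98 had 160 and 140 normalised reads in Elf4fl/fl-Villin-Cre colon, against 1.03 and 3.16 in WT colon (limma adjusted p = 0.0074). Igkv3-7 had 1519 and 1406 in Elf4fl/fl-Villin-Cre colon, against 229 and 109 in WT colon (limma adjusted p = 0.0094). Other called kappa segments were far apart between the Elf4fl/fl-Villin-Cre libraries. Igkv4-62 had 296 and 20.9 there, against 1.03 and 1.05 in WT colon, and Igkv11-125 had 203 and 17.6, against 1.03 and 3.16. Igkv5-45 had 305 and 79.4 in Elf4fl/fl-Villin-Cre colon, against 18.5 and 26.3 in WT colon. Ighv1-26 went the other way, at 800 and 544 in Elf4fl/fl-Villin-Cre colon, against 2248 and 1252 in WT colon (limma adjusted p = 0.039), and edgeR lost it without WT replicate 1 (adjusted p = 0.0685). Per 100 constant gene reads variable segment reads averaged 30.8 ± 1.12 (SD, n = 2) in Elf4fl/fl-Villin-Cre colon, against 22.1 and 19.9 in the WT libraries. Segments resemble each other in sequence, so the value of a single segment is uncertain.

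Transcription and surface genes of plasma cells were called in both directions (over all genes tested, limma called 6.86% higher and 8.6% lower). Among 15 transcription and surface genes there were 3 that rose and 1 that fell (median 0.62), and edgeR called 0 of them higher without WT replicate 2. Their edgeR median was 0.26 when Elf4fl/fl-Villin-Cre replicate 1 was dropped and 1.03 without WT replicate 1. Prdm1, which encodes the plasma cell factor BLIMP-1 and is also made by T cells and epithelium, had 1069 and 802 normalised reads in Elf4fl/fl-Villin-Cre colon, against 498 and 359 in WT colon. It rose by 1.13 (limma adjusted p = 0.0243), and edgeR lost it without WT replicate 2 (adjusted p = 0.0836). Tent5c, a poly(A) polymerase that lengthens antibody RNA tails, rose by 0.62 and Cd28, a costimulatory receptor of T cells and plasma cells, by 1.72 (limma adjusted p = 0.0439 and 0.0223). Without 1 library, edgeR called Tent5c in 0 of 4 fits (adjusted p = 0.0502 to 0.177) and Cd28 only when Elf4fl/fl-Villin-Cre replicate 2 was dropped, with an adjusted p of up to 0.0846 otherwise. Cd38, an NAD-consuming surface enzyme of many cell types, fell by 1.02 (limma adjusted p = 0.0123). Irf4, Pou2af1 and Bhlha15, transcription regulators of the list besides Prdm1, were not called by limma. Their log2 fold changes were 0.78, 1.14 and 0.003 (limma adjusted p = 0.149, 0.0774 and 0.995).

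Genes of the secretory pathway were not higher with Jchain. Of 24 genes for chaperones, translocation and stress, 0 rose and 2 fell, and the median was -0.23. With libraries scaled to their totals the list median was 0.09, below the 0.41 of all genes. With the deposited scaling the median of all genes was 0.11. Ern2, the stress sensor particular to mucosal epithelium, had 453 and 568 normalised reads in Elf4fl/fl-Villin-Cre colon, against 982 and 1005 in WT colon (limma adjusted p = 0.0162). Ern1, the form made in plasma cells and most other cells, had 988 and 987 in Elf4fl/fl-Villin-Cre colon, against 804 and 907 in WT colon (limma adjusted p = 0.327). Sec61b, of the translocation channel, fell by 0.63 (limma adjusted p = 0.0262). edgeR lost it with the first Elf4fl/fl-Villin-Cre library (adjusted p = 0.0808) or WT replicate 2 (adjusted p = 0.0521) left out.

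B cell genes were set beside the share over all genes tested, of which limma called 6.86% higher and 8.6% lower. Of 16, all had a log2 fold change above 0, 2 rose and 0 fell, and the median was 0.90. With 1 library left out, 3 of the 16 took a negative sign in at least 1 limma fit (Cd79b, Fcer2a and Fcmr). The edgeR median was 0.35 when Elf4fl/fl-Villin-Cre replicate 1 was dropped, 0.46 without WT replicate 2 and 1.43 without WT replicate 1. Ebf1 and Bank1, a B lineage factor and a signalling scaffold, rose by 1.34 and 1.36 (limma adjusted p = 0.0317 and 0.0378), and edgeR called each only when Elf4fl/fl-Villin-Cre replicate 2 was dropped, with adjusted p of up to 0.118 and 0.138 otherwise. The summed B cell level was 4966 and 2637 normalised reads in Elf4fl/fl-Villin-Cre colon, against 2716 and 1330 in WT colon, so the groups overlapped. edgeR called 0 of the 16 when WT replicate 2 or Elf4fl/fl-Villin-Cre replicate 1 was dropped, and 9 when Elf4fl/fl-Villin-Cre replicate 2 was.

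Signals that direct B cells to IgA were higher in part. Among 16 genes of class switching and help, 4 rose, 0 fell and the median was 0.94. Over all genes tested, limma called 6.86% higher and 8.6% lower. In edgeR the median was 0.52 when Elf4fl/fl-Villin-Cre replicate 1 was dropped and 0.53 without WT replicate 2. It was 1.14 when Elf4fl/fl-Villin-Cre replicate 2 was dropped and 1.32 without WT replicate 1. Tgfb1, the main switch factor for IgA, had 1033 and 895 normalised reads in Elf4fl/fl-Villin-Cre colon, against 506 and 385 in WT colon (limma adjusted p = 0.016), and edgeR lost it without WT replicate 2 (adjusted p = 0.0517). Aldh1a2, which makes retinoic acid, rose by 1.34 and Il10 by 2.51 (limma adjusted p = 0.0105 and 0.0106). Il6, a growth factor for plasma cells, rose by 4.58 (limma adjusted p = 0.0177), or 5.86 without WT replicate 1 and 3.30 without WT replicate 2.

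Homing genes moved both ways. Of 11, 2 rose and 1 fell, with a median of 0.54, where limma called 6.86% of all genes tested higher and 8.6% lower. Without Elf4fl/fl-Villin-Cre replicate 2 the edgeR median was 0.61, and without WT replicate 1 it was 0.60. In edgeR the median was 0.29 when Elf4fl/fl-Villin-Cre replicate 1 was dropped and 0.26 without WT replicate 2, where 0 of the 11 were called. Ccl28, the epithelial chemokine that draws IgA cells to the colon, had 519 and 802 normalised reads in Elf4fl/fl-Villin-Cre colon, against 1202 and 1439 in WT colon. It fell by 1.03 (limma adjusted p = 0.0346), and edgeR lost it without WT replicate 2 (adjusted p = 0.102) or the first Elf4fl/fl-Villin-Cre library (adjusted p = 0.0502). The receptor gene for it, Ccr10, had 74.9 and 65.2 in Elf4fl/fl-Villin-Cre colon, against 61.7 and 63.2 in WT colon (limma adjusted p = 0.694). Cxcl13, the chemokine of B cell follicles, had 3589 and 1622 in Elf4fl/fl-Villin-Cre colon, against 397 and 311 in WT colon. It rose by 2.78 (limma adjusted p = 0.0113), and edgeR lost it without WT replicate 2 (adjusted p = 0.052). Itga4, an integrin subunit of many leukocytes, rose by 1.07 (limma adjusted p = 0.038), and edgeR called it only when Elf4fl/fl-Villin-Cre replicate 2 was dropped, with an adjusted p of up to 0.116 otherwise.

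**Figure D4:**
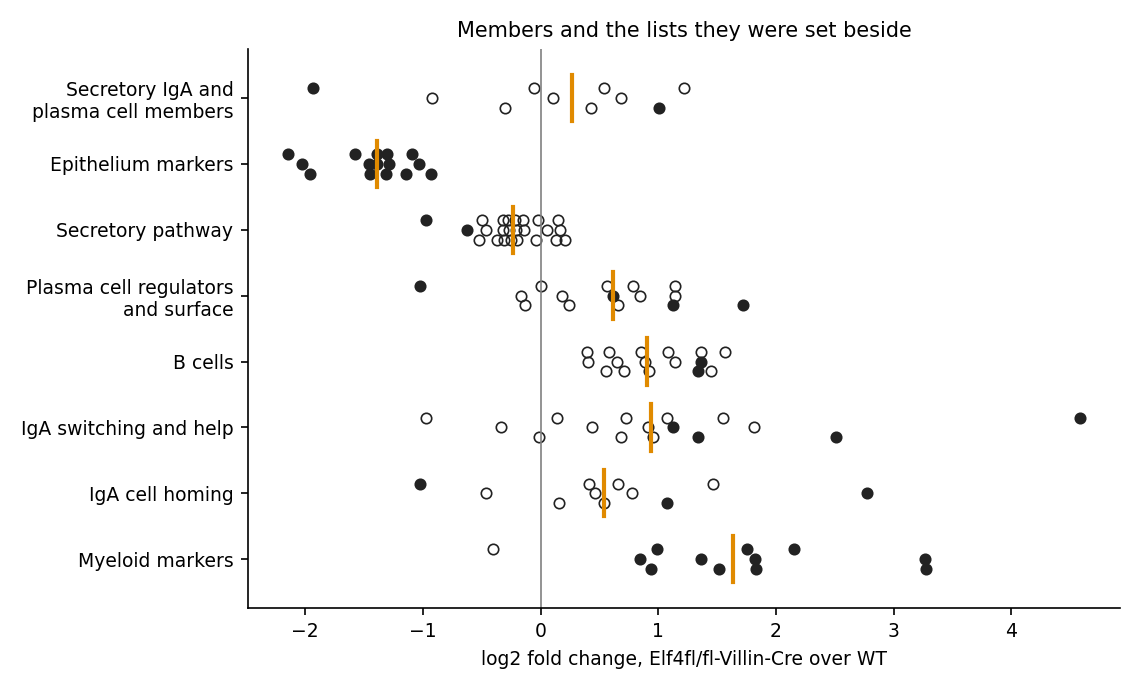
Log2 fold changes, Elf4fl/fl-Villin-Cre over WT, of the 10 members and of 7 lists set beside them. Each point is a gene, filled where its limma adjusted p is under 0.05, and orange bars are medians. The 15 epithelium markers lie left of 0, as Pigr does, and all 16 B cell genes lie right of 0 with all 4 libraries in the fit.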

How the data were processed

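The authors deposited normalised values (a signal, here called normalised reads) for each gene in 4 libraries. Dividing by the smallest nonzero value of a library gave whole numbers throughout (100% within 0.01), so whole reads were recovered. One read was worth 0.814 and 0.836 in Elf4fl/fl-Villin-Cre and 1.03 and 1.05 in WT libraries. The submitters' processing notes name mm10. Aligner, counter, strandedness and scaling tool: not given in the sources used here. GENCODE mouse release 21 gave symbols for 22376 of 22422 identifiers (99.8%) and exon lengths for levels per length. limma (3.58.1, in R 4.3.3) was the test, with a variance trend, on log2(value + 1) of 22050 genes whose mean was at least 1, Benjamini-Hochberg adjusted at 0.05. It had 2 residual and 4.06 prior degrees of freedom. edgeR (4.0.16; 17337 genes, common biological variation 18.7%) and DESeq2 (1.42.0) were run on the whole reads. limma and edgeR, but not DESeq2, were also run on simulated data drawn with the same dispersion for every gene. That setting is simpler than these data, so the run does not measure error rates here. Named genes were the members, Elf4 and, from each list, up to 4 called genes by smallest p, or up to 2 as values where none passed; others named were chosen after their values were seen, and some genes of the lists are not reported here. Members and lists were chosen with earlier results of these data known. Ratios and shares use whole reads, and intervals cover counting error only.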

Additional observations from a re-analysis of the deposited data

How the results depend on the processing

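Over 21 alternatives the direction of Pigr and Jchain did not change, with log2 fold changes of -2.36 to -1.56 and 0.80 to 1.32. Pigr was called in 16 of them and Jchain in 14. Without a variance trend limma called 0 genes higher and 0 lower (3326 and 2762 at an unadjusted p under 0.05; edgeR 1713 and 2341), and so 0 members. limma without 1 library also called 0 (1717 to 3412 higher and 2061 to 2859 lower at an unadjusted p under 0.05), having 1 residual degree of freedom less. Over all fits without 1 library, the lone library of a genotype being taken to vary like the others, members called ranged from 0 to 2 higher and 0 to 1 lower, and genes from 0 to 1563 higher and 0 to 2191 lower. In edgeR the fewest came without WT replicate 2 (476 higher and 809 lower), and 844 were higher without Elf4fl/fl-Villin-Cre replicate 1. With libraries scaled to their totals, 2 members (Jchain and Sdc1) were higher, and 4030 genes were higher and 1162 lower, or 77.6% higher against 44.4% with the deposited scaling. That scaling put the median of all genes at 0.41 in place of 0.11, so Sdc1's 0.85 is to be read against it. DESeq2 called 2 members lower (Pigr and Tnfsf13). Under a replicate block, 4 members were higher (Jchain, Mzb1, Derl3 and Sdc1) and 2 lower (Pigr and Tnfsf13) in both limma and edgeR, and edgeR called 2456 genes higher and 2977 lower. The numbers are not stated to pair libraries, and the deviations of same-numbered libraries correlated at 0.104 across genes. Igha took the opposite sign in 4 alternatives and was called in 0. Depth limits Tnfrsf17 most, which rests on 46 to 59 reads a library.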

Other observations

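Of 10 smooth muscle and fibroblast genes, 2 rose and 1 fell. The matrix proteoglycan gene Dcn had 22309 and 23695 normalised reads in Elf4fl/fl-Villin-Cre colon, against 6624 and 6200 in WT colon (limma adjusted p = 0.0074). Pdgfra, a fibroblast receptor gene, rose by 0.74 and the muscle filament gene Des fell by 0.93 (limma adjusted p = 0.023 and 0.0382). edgeR called Pdgfra and Des only when Elf4fl/fl-Villin-Cre replicate 2 was dropped, with adjusted p of up to 0.105 and 0.124 otherwise, and limma called no gene of this list lower with libraries scaled to their totals. Of 9 T cell markers, 0 passed limma or edgeR. Cd5 had the smallest p, at 94.5 and 81.1 in Elf4fl/fl-Villin-Cre colon, against 51.4 and 39.0 in WT colon (limma adjusted p = 0.0675), and Cd2 stood at 93.7 and 113 in Elf4fl/fl-Villin-Cre colon, against 68.9 and 54.8 in WT colon.

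Lambda light chains varied between libraries of 1 genotype. Iglc1 took 4.39% and 14.2% of light chain constant reads in Elf4fl/fl-Villin-Cre colon, and 8.69% and 1.47% in WT colon. The segment Iglv1 alone took 12.7% and 31.6% of variable segment reads in Elf4fl/fl-Villin-Cre colon, and 17.6% and 4.32% in WT colon. Libraries of 1 genotype thus differed as widely as the genotypes. The kappa constant gene Igkc stood at 65808 and 65554 normalised reads in Elf4fl/fl-Villin-Cre colon, against 74423 and 42675 in WT colon.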
